A study of Mus musculus with 12 samples.

Results

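Epiblast-like cells (EpiLCs) of mice with and without a working *Kdm5c* gene were examined for 36 genes of Nodal, Activin, TGF-beta and BMP signalling, out of 22911 genes in the deposited tables. The members were taken by gene symbol from a list of ligands, extracellular antagonists, receptors, Smads and target genes. The rule uses names and no measured value, but the list was drawn up with earlier results of these data known. All 36 were in both tables and had reads in both sexes. *Kdm5c* is X-linked and encodes a demethylase of histone H3 lysine 4.

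RNA-Seq was performed on 12 samples in 4 groups of 3. The controls were female *Kdm5c* fl/fl and male *Kdm5c* flY, which the labels call wild type although the paper gives them floxed alleles. The mutants were female *Kdm5c* Δ/Δ and male *Kdm5c* ΔY, in which Cre recombination had removed exons 11 and 12. All samples share the strain name C57BL/6J in the labels, while the methods of the study describe the floxed strain as being of mixed background. For every genotype, 3 embryonic stem cell (ESC) lines, derived on feeder fibroblasts, were passaged on gelatin in 2 inhibitors with LIF and then converted to EpiLCs. The conversion lasted 48 h in 20 ng/ml Activin A and 10 ng/ml FGF2 on dishes coated with fibronectin at 15 µg/ml, the same in all 4 groups, so an agonist of the pathway was in the medium of every sample. No age applies to these cultured cells, and no sample was grown without Activin A.

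The family works through 2 branches. Nodal, Activin and TGF-beta bind a pair of type II and type I receptors that phosphorylate Smad2 and Smad3, whereas BMPs act through Smad1 and Smad5. Both kinds of Smad enter the nucleus with Smad4 and switch on targets, and among these targets are the inhibitors that close the loop. In the epiblast, Nodal and its co-receptor Cripto, the product of *Tdgf1*, sustain the primed pluripotent state and pattern the embryo, while the *Id* genes are well-known BMP targets.

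The *Id* genes are the textbook targets of the BMP branch, and the difference between the sexes passed for 3 of the 4, *Id1*, *Id2* and *Id3*. The 250 bases before the start of the 3 with a promoter in the table are therefore shown here. They are taken from RefSeq on GRCm38.p6. Capitals mark GGCGCC, a GC-rich sequence described as a Smad site, which is its own reverse complement and was therefore searched once for both strands.
*Id2*, chr12:25096093-25096342, − strand: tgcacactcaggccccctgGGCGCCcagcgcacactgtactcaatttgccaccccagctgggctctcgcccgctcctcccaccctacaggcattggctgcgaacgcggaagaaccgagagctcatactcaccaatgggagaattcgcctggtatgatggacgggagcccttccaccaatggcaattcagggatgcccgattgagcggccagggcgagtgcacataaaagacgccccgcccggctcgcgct
*Id3*, chr4:136143572-136143821, + strand: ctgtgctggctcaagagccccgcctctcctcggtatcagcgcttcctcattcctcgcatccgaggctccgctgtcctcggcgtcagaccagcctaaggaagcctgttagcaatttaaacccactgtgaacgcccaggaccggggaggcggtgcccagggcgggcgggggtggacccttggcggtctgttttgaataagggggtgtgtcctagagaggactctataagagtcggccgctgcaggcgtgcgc
*Id4*, chr13:48260866-48261115, + strand: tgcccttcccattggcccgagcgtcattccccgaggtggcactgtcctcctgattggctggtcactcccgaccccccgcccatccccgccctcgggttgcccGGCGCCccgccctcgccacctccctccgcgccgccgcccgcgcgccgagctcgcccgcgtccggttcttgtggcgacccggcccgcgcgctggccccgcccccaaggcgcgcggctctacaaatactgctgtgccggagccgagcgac

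The match began 231 bases before the start in *Id2* and 148 bases before it in *Id4*, and these letters were not in the window of *Id3*. Among 32851 promoters of this length, 9.59% held GGCGCC. Of the 22 members with a promoter in the table, 6 held it, which were *Bmpr1a*, *Bmpr2*, *Id2*, *Id4*, *Smad5* and *Tgfbr1*. AATCCACA, a site of FoxH1, with its reverse complement TGTGGATT, was in 0.718% of all promoters and in 0 of the members' windows. These matches are descriptions of letters and were not tied to binding.

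Reads were counted per gene and divided by a size factor per library, which gives the normalized count. The deposited tables give group means, from which the reads of all 12 libraries were recovered for genes with a mean of at most 10000 (5516216 to 11092731 reads per library on these genes). The 3 libraries of a group are called A, B and C, in order of falling size factor, with no link to single ESC lines. Library B of *Kdm5c* flY and library A of *Kdm5c* ΔY stood apart. The chi-square per gene between 2 libraries of a group, which is 1 for sampling noise alone, was 17.4 to 29.5 for pairs that held either of them and 1.97 to 4.55 for the other pairs. Of 3236 genes without a read in any female library, 58.0% and 52.3% had a read in flY libraries A and C, against 4.48 to 6.89% in the other 4 male libraries. Because flY library B and ΔY library A lay far from the others of their group, male results are given with all 6 libraries and again without these 2. By reads on the silent genes, flY libraries A and C were instead the odd ones, and they are the only controls in that second fit. The libraries left in it are alike by choice, so its p-values do not measure the variation between ESC lines. That second male fit called 5508 genes lower and 3844 higher. The pairs of female libraries, at 1.97 to 4.55, were about as alike as the male pairs kept in it (2.31 and 2.61). Whether the spread in females covers that between ESC lines was not tested, which limits the female p-values too. *Kdm5c* was measured first. It had 2359.7 ± 60.7 normalized counts (mean ± SD, n = 3) in fl/fl and 1453 ± 49.7 in Δ/Δ cells, and 2226 ± 133 in flY and 1938 ± 39.7 in ΔY cells. The mutant libraries lay below the control libraries in both sexes, but in males by a log2 change of only −0.20 (adjusted p = 0.271). The count covers the whole gene, most of which the mutant allele keeps, so it is a weak check of the male labels.

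All 8 markers of the formative epiblast were detected in every library, with a summed count of 7868 to 18978, and so were all 8 naive ESC markers. Of the formative markers, 3 were higher and 4 lower in Δ/Δ than in fl/fl cells, and 3 were lower in ΔY than in flY cells (1 higher and 7 lower without the libraries that stood apart). The 3 that fell in males were *Otx2*, from a mean of 1363 to 408 (adjusted p = 0.00051), *Pou3f1*, from 1015 to 386 (adjusted p = 0.038), and *Fgf5*, from 336 to 168 (adjusted p = 0.036). In females *Otx2* rose (log2 change 0.36, adjusted p = 0.0013). The 1 marker higher in ΔY cells without the libraries that stood apart was *Sox2* (log2 change 0.51, adjusted p = 0.00052). Marker genes of other cell types had reads as well. The 12 markers of extraembryonic endoderm summed to 561 to 649 in fl/fl and 6657 to 6822 in Δ/Δ libraries, and all 12 were higher in Δ/Δ cells. In males they summed to 2926 to 5440.03 in flY cells, 1029.9 in ΔY library A, and 6711 and 6857 in ΔY libraries B and C, with 0 markers higher and 1 lower, *Sox17* (1 higher and 2 lower at an unadjusted p under 0.05, and 0 and 1 with limma voom). Without the libraries that stood apart, 8 of the 12 were higher and 2 lower in ΔY cells. The 12 fibroblast markers were followed because of the feeders used in derivation. They summed to 4277 to 4406 in fl/fl and 2302 to 2350.2 in Δ/Δ cells (5 of 12 lower), and to 1438 to 1815 in flY and 5572 to 6597 in ΔY cells (5 of 12 higher, or 5 higher and 2 lower without the libraries that stood apart). The 8 trophoblast markers had 2 higher and 3 lower in females and 7 higher in males in either fit. The 8 naive ESC markers had 6 higher and 1 lower in females and 4 higher in males, or 7 higher and 1 lower without the libraries that stood apart. No list had a gene at 0 in all libraries. In bulk RNA, fewer cells of a type cannot be told apart from less RNA per cell. Nor can cells of another type be told apart from EpiLCs that express these genes. The presence of such cells and their part in the results below were not tested.

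Between genes, levels were compared as normalized counts per kb of annotated exon. *Tdgf1*, which encodes the Nodal co-receptor Cripto, was the highest member in every group, with 3799.8 ± 48.6 per kb in fl/fl, 2910 ± 159 in Δ/Δ, 3082 ± 92.4 in flY and 3519.8 ± 808 in ΔY cells (SD, n = 3 libraries). No other member came near it. *Lefty1* at 560 per kb, *Foxh1* at 453 and *Lefty2* at 400 followed as means of the 4 groups, and *Skil* and *Smad7* came next at 387 and 379. *Lefty1*, *Foxh1* and *Lefty2* changed places among groups, and in fl/fl cells they lay at 535, 537 and 539 per kb, closer together than the spread between libraries. *Nodal* stood ninth with 216 per kb. At the other end were *Bmp2* at 4.69, *Tgfbr2* at 8.37, *Acvr1* at 9.47 and *Tgfb1* at 10.4 per kb. The level of *Tdgf1* is the least certain, since only 75.8% of its 50-base exon positions occur once in the genome, against 80.2% for *Lefty1*, 84.3% for *Lefty2* and at least 96.1% for the other members.

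**Figure D1:**
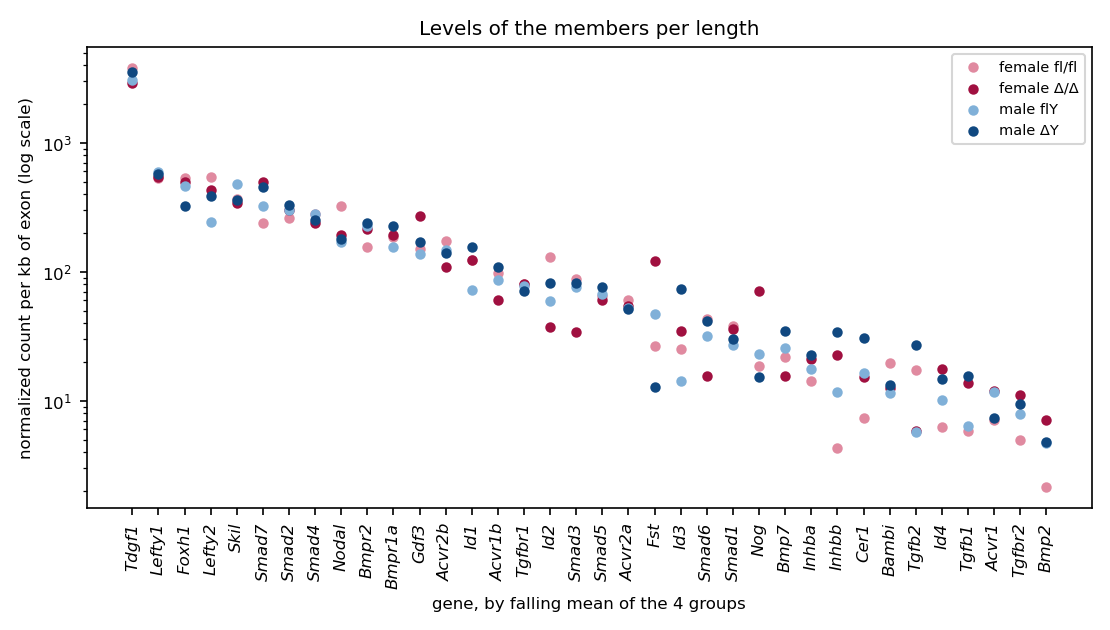
Normalized count per kb of exon for each of the 36 members on a log axis, 1 point for the mean of 3 libraries in each of the 4 groups, with genes ordered by the mean of the groups. *Tdgf1* lies above all others, and *Fst*, *Nog*, *Id2*, *Id3*, *Inhbb* and *Tgfb2* have widely separated groups.

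The comparison of mutant and control asks what the loss of KDM5C does to expression in each sex. In females, 27 of the 36 members passed the test, 15 of them higher and 12 lower in Δ/Δ than in fl/fl cells. Of all 19572 genes tested, 50.1% passed (25.4% higher and 24.7% lower). The median log2 change of the members was 0.02, against 0.00 over all genes tested, and the median size of the change was 0.65 against 0.40. In 30 members the 3 mutant libraries did not overlap the 3 controls, 15 in each direction, where 54.8% of all genes tested did not overlap. In males, 6 of 36 passed, 5 higher and 1 lower, against 7.8% of 21872 genes (4.21% higher and 3.59% lower), and 15 did not overlap (11 higher, 4 lower) against 26.5% of all genes. Without the libraries that stood apart, 15 of 36 passed in males, 9 higher and 6 lower, where 42.9% of all genes did (17.7% higher and 25.3% lower). The share of members was thus above that of all genes in females, above it in males with all libraries, and near it in males without the libraries that stood apart. All genes tested include many with few reads, which seldom pass. In fits of genes with a mean of at least 10, 65.9% of 13904 genes passed in females and 12.3% of 14276 in males with all libraries. These shares lie nearer to those of the members. With 1 library left out, 12 members passed in males without ΔY library A, 8 without flY library B, 4 without flY library C, and 3, namely *Tgfb2*, *Fst* and *Id3*, without flY library A, ΔY library B or ΔY library C. These p-values are adjusted over all genes tested in a limma fit. For 1 gene alone, 3 libraries against 3 cannot give an exact permutation p below 0.10 (two-sided).

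**Figure D2:**
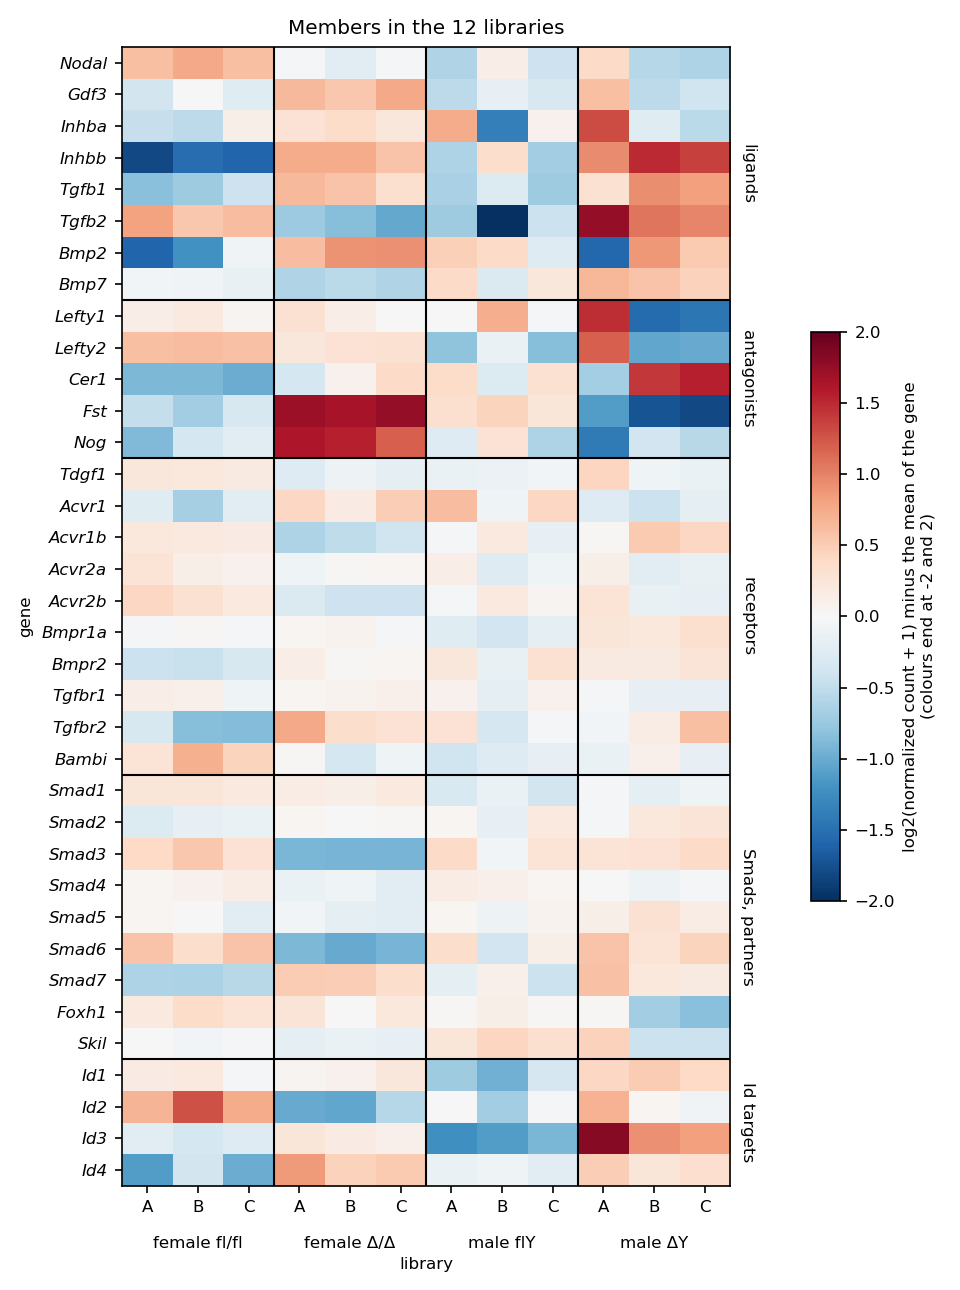
Log2(normalized count + 1) of the 36 members in the 12 libraries, each gene relative to its own mean, ordered by role and by group, with colours that end at −2 and 2. The female groups differ by blocks of 3 like libraries, whereas ΔY library A differs from ΔY libraries B and C in *Lefty1*, *Lefty2*, *Nodal*, *Gdf3*, *Foxh1* and *Skil*.

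Among the 8 ligands, every one passed the test in females. *Gdf3*, *Inhba*, *Inhbb*, *Tgfb1* and *Bmp2* rose, and *Nodal*, *Tgfb2* and *Bmp7* fell. In males *Inhbb* and *Tgfb2* rose, with the others not past the threshold, and *Tgfb1* rose as well without the libraries that stood apart. The median log2 change of the ligands was 0.71 in females and 0.40 in males. Over all genes tested in males it was −0.16, and 0.00 over those with a mean of at least 10.

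*Nodal*, the ligand that gives the pathway its role in the epiblast, lies on chromosome 10 of mm9 (60880720 to 60888086, + strand). Its normalized counts were 648, 724 and 654 in the fl/fl libraries and 416, 369 and 416 in the Δ/Δ libraries. The groups did not overlap, and the log2 change was −0.75 (standard error 0.072, adjusted p = 8.1e-08), a 1.68-fold fall. In males it had 282, 471 and 322 in flY cells and 562, 289 and 279 in ΔY cells. Libraries flY B and ΔY A were the high ones, the groups overlapped, and the log2 change was 0.03 (standard error 0.28, adjusted p = 0.959), or −0.09 (standard error 0.097, adjusted p = 0.488) without them. In all male libraries, *Nodal* was below the lowest fl/fl library. *Gdf3* encodes a relative of Nodal that is found in pluripotent cells. It had 283, 370.0 and 309 in fl/fl and 571, 531 and 619 in Δ/Δ cells (log2 change 0.84, standard error 0.090, adjusted p = 3.3e-07), so it moved the other way from *Nodal* in the same cells. In males its counts were 254, 328 and 292 in flY and 557, 253 and 277 in ΔY cells, with ΔY library A alone above the controls (log2 change 0.23, standard error 0.27, adjusted p = 0.615).

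*Inhbb*, which encodes the beta B subunit of Activin B and inhibin B, rose in both sexes. Its counts were 16.1, 19.8 and 18.9 in fl/fl and 99.5, 99.3 and 87.9 in Δ/Δ cells, a 5.03-fold rise (log2 change 2.33, standard error 0.19, adjusted p = 1.4e-08). They were 37.9, 75.5 and 35.9 in flY and 114, 167 and 153 in ΔY cells (log2 change 1.59, standard error 0.31, adjusted p = 0.016). All mutant libraries exceeded all controls in each sex. The male call was lost without ΔY library B, ΔY library C, flY library A or flY library C (adjusted p = 0.069 to 0.0996). Without both libraries that stood apart the log2 change was 2.09 (adjusted p = 0.00017), in a fit whose spread is small by the choice of libraries. *Inhba*, for the beta A subunit, had 24.1, 23.1 and 36.7 in fl/fl and 41.5, 43.8 and 39.4 in Δ/Δ cells. Its log2 change was 0.59 (standard error 0.23, adjusted p = 0.044), and it lost the call without any 1 of the libraries except fl/fl library C (adjusted p = 0.076 to 0.131) and under scaling by total reads (adjusted p = 0.074). In males *Inhba* ranged from 12.4 to 56.8 in flY and from 22.8 to 84.4 in ΔY cells, and the groups overlapped.

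*Tgfb2*, a TGF-beta ligand, lies on chromosome 1 (188447065 to 188529871, − strand) and moved in opposite directions in the sexes. Its counts were 92.5, 76.9 and 81.2 in fl/fl and 31.3, 28.6 and 25.3 in Δ/Δ cells, a log2 change of −1.52 (standard error 0.18, adjusted p = 1.4e-06). In males they were 31.9, 12.4 and 38.8 in flY and 180.2, 112 and 104 in ΔY cells, a log2 change of 2.31 (standard error 0.42, adjusted p = 0.012), and 1.59 (standard error 0.18, adjusted p = 0.00097) without the libraries that stood apart. The groups did not overlap in either sex. All fl/fl and ΔY libraries had at least 76.9, and all Δ/Δ and flY libraries at most 38.8. *Tgfb1* rose in Δ/Δ cells from 13.1, 14.3 and 17.8 to 38.4, 36.2 and 30.3 (log2 change 1.17, standard error 0.26, adjusted p = 0.0010). In males it was 15.0, 19.6 and 14.4 in flY and 30.03, 46.6 and 43.4 in ΔY cells without overlap, with a log2 change of 1.23 (standard error 0.35, adjusted p = 0.064) that passed with a minimum mean of 10 (adjusted p = 0.041) and without the libraries that stood apart (1.55, adjusted p = 0.0039).

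The BMP ligands went different ways in females. *Bmp2* was low, with 4.02, 5.49 and 13.3 in fl/fl and 21.9, 26.9 and 27.3 in Δ/Δ cells (log2 change 1.76, standard error 0.38, adjusted p = 0.00072). *Bmp7* fell from 90.5, 88.9 and 84.5 to 61.1, 64.0 and 61.6 (log2 change −0.49, standard error 0.14, adjusted p = 0.0069). In males, *Bmp2* had 19.9, 18.6 and 11.5 in flY and 4.06, 26.4 and 20.7 in ΔY cells, so that ΔY library A lay below every control and the other ΔY libraries above them. *Bmp7* had 123, 76.5 and 109 in flY and 149, 139 and 129 in ΔY cells, which did not overlap but gave a log2 change of 0.46 with an adjusted p of 0.223. *Bmp4*, listed among the other genes of the pathway and a BMP ligand known to induce *Id* genes, had 20.9 to 25.2 in fl/fl, 21.9 to 27.8 in Δ/Δ, 34.5 to 52.7 in flY and 31.0 to 39.5 in ΔY cells and passed the test in neither sex.

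The 5 extracellular antagonists bind the ligands or their co-receptor. In females *Cer1*, *Fst* and *Nog* rose, *Lefty2* fell and *Lefty1* did not pass the test. In males *Fst* passed, as a fall, and without the libraries that stood apart *Lefty1* fell and *Cer1* rose as well.

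*Fst* encodes follistatin, which binds Activin and keeps it from its receptors, and lies on chromosome 13 (115242470 to 115249159, − strand). Its counts were 71.4, 61.5 and 80.04 in fl/fl and 329.9, 316 and 339.5 in Δ/Δ cells, a 4.60-fold rise (log2 change 2.201, standard error 0.11, adjusted p = 1.6e-11). In males they were 125, 135 and 118 in flY and 45.4, 29.4 and 27.9 in ΔY cells, a log2 change of −1.88 (standard error 0.26, adjusted p = 0.0036). Neither pair of groups overlapped. The fall in males was −2.04 (adjusted p = 0.00027) without the libraries that stood apart, and it kept its call with each library left out. The difference between the sexes, male change minus female change, was −4.08 (standard error 0.26, adjusted p = 2.8e-07), the largest of any member.

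*Nog* encodes noggin, an antagonist of BMPs. It rose in females from 26.2, 38.4 and 42.2 to 152, 146 and 114 (log2 change 1.94, standard error 0.19, adjusted p = 8.6e-08). In males it had 40.9, 60.0 and 31.6 in flY and 17.9, 37.5 and 33.1 in ΔY cells (log2 change −0.58, standard error 0.39, adjusted p = 0.365), and the libraries overlapped. *Cer1*, which encodes Cerberus, an inhibitor of Nodal and BMPs, was low in fl/fl cells with 13.1, 13.2 and 12.2 and had 19.6, 26.9 and 33.3 in Δ/Δ cells (log2 change 0.97, standard error 0.29, adjusted p = 0.0097). Without Δ/Δ library C the adjusted p was 0.056. Its male counts were 32.9, 20.7 and 31.6 in flY and 15.4, 68.9 and 76.5 in ΔY cells, so that ΔY library A was the lowest and the other ΔY libraries the highest. The log2 change was 0.63 (standard error 0.56, adjusted p = 0.5001) with all libraries and 1.15 (standard error 0.19, adjusted p = 0.0044) without those that stood apart. The order of the 3 ΔY libraries was the same for the summed markers of extraembryonic endoderm, a tissue in which Cerberus is made. Whether such cells were present or had a part was not tested.

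*Lefty1* and *Lefty2*, inhibitors of Nodal that are themselves induced by Nodal signalling, lie side by side on the + strand of chromosome 1 (182865153 to 182868531 and 182823239 to 182829234). *Lefty1* had 940, 988 and 893 in fl/fl and 1062, 944 and 864 in Δ/Δ cells, with a log2 change of 0.02 (standard error 0.071, adjusted p = 0.825) whose sign turned under scaling by total reads (−0.05). *Lefty2* had 1415, 1418 and 1393 in fl/fl and 1089, 1135 and 1150 in Δ/Δ cells (log2 change −0.33, standard error 0.054, adjusted p = 5.7e-05). In females *Lefty2* was therefore lower without overlap, while *Lefty1* overlapped. In males the mutant libraries were far from each other. *Lefty1* had 860, 1430 and 839 in flY and 2388, 297 and 315 in ΔY cells. *Lefty2* had 533, 845 and 513 in flY and 2130, 451 and 460.3 in ΔY cells. ΔY library A was the highest of all 12 libraries for both genes and the other ΔY libraries were the lowest. With all libraries the log2 changes were −0.73 (standard error 0.66, adjusted p = 0.511) and 0.31 (standard error 0.51, adjusted p = 0.707). Without the libraries that stood apart, *Lefty1* was −1.47 (standard error 0.072, adjusted p = 4.4e-05) and *Lefty2* −0.20 (standard error 0.070, adjusted p = 0.059). The 2 genes resemble each other in sequence, but their summed count showed the same picture, with 4519 in ΔY library A against 748 and 776 in ΔY libraries B and C and 1352 to 2274 in flY cells.

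Of the 10 receptors, with the co-receptor *Tdgf1* and the decoy receptor *Bambi*, 7 passed in females. *Acvr1*, *Bmpr2* and *Tgfbr2* rose, and *Tdgf1*, *Acvr1b*, *Acvr2b* and *Bambi* fell. With all libraries *Bmpr1a* was the 1 receptor that passed in males, and without those that stood apart *Acvr1b* and *Bmpr1a* rose and *Acvr1* and *Tgfbr1* fell. The changes were smaller than among ligands and antagonists. A log2 change of at least 1 was called in 1 of the 10 in females and in 0 of the 10 in males. Of all genes tested, 16.2% in females and 4.38% in males passed with a change of that size, so these counts lie near the shares of all genes.

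The Nodal receptor complex is made of the type I receptor ALK4 from *Acvr1b*, a type II receptor from *Acvr2a* or *Acvr2b*, and Cripto. In females *Acvr1b* fell from 324, 321 and 317 to 183, 198 and 213 (log2 change −0.69, standard error 0.083, adjusted p = 1.4e-06). *Acvr2b* fell from 329, 305 and 280.2 to 201, 185 and 185 (log2 change −0.67, standard error 0.087, adjusted p = 3.5e-06), and *Acvr2a* had 329 to 373 in fl/fl and 292 to 317 in Δ/Δ cells (adjusted p = 0.080, or 0.016 under scaling by total reads). *Tdgf1* fell from 7399, 7331 and 7214 to 5291, 5904 and 5608 (log2 change −0.39, standard error 0.055, adjusted p = 9.6e-06). For the called members of this complex, every Δ/Δ library lay below every fl/fl library. In males *Acvr1b* had 274, 324 and 250.1 in flY and 286, 403 and 374 in ΔY cells, a log2 change of 0.32 (adjusted p = 0.270) with all libraries and 0.57 (standard error 0.091, adjusted p = 0.0037) without those that stood apart. *Tdgf1* had 5813, 5846 and 6137 in flY and 8569, 5960 and 5798 in ΔY cells, where library A again was the highest and the rest lay together.

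The type I receptors of BMPs showed no common direction. *Acvr1*, for ALK2, rose in females from 37.2, 27.4 and 37.8 to 58.8, 49.7 and 62.7 (log2 change 0.73, standard error 0.20, adjusted p = 0.0055) and had 67.8, 41.4 and 58.9 in flY and 36.5, 32.4 and 38.3 in ΔY males (log2 change −0.61, adjusted p = 0.226, or −0.83 with an adjusted p of 0.020 without the libraries that stood apart). *Bmpr1a*, for ALK3, had 1158 to 1220 in fl/fl and 1175 to 1251 in Δ/Δ cells (log2 change 0.04, adjusted p = 0.559). In males it rose from 1006, 918 and 1049 to 1419, 1390 and 1487 (log2 change 0.53, standard error 0.11, adjusted p = 0.0197), a call that was lost without ΔY library B, ΔY library C, flY library A or flY library C (adjusted p = 0.076 to 0.111). The difference between the sexes for *Bmpr1a* was 0.49 (adjusted p = 0.0055). The type II receptor *Bmpr2* rose in females from 537, 533 and 580.3 to 791, 736 and 748 (log2 change 0.46, standard error 0.063, adjusted p = 6.6e-06). *Tgfbr2*, the type II receptor of TGF-beta, rose in females from 51.3, 35.1 and 34.5 to 109, 81.6 and 78.8 (log2 change 1.15, standard error 0.19, adjusted p = 6.7e-05), while its partner *Tgfbr1* had 475 to 549 in fl/fl and 519 to 542 in Δ/Δ cells. In males *Tgfbr1* overlapped with all libraries (log2 change −0.11, adjusted p = 0.597) and was slightly lower in ΔY cells without those that stood apart (−0.25, standard error 0.068, adjusted p = 0.025). *Bambi*, a decoy receptor and BMP target, fell from 84.5, 115 and 95.6 to 70.5, 54.7 and 65.7 in females (log2 change −0.62, standard error 0.16, adjusted p = 0.0030). In males *Bmpr2*, *Tgfbr2* and *Bambi* had adjusted p-values of 0.722, 0.579 and 0.581, with overlapping libraries for *Bmpr2* and *Tgfbr2*.

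**Figure D3:**
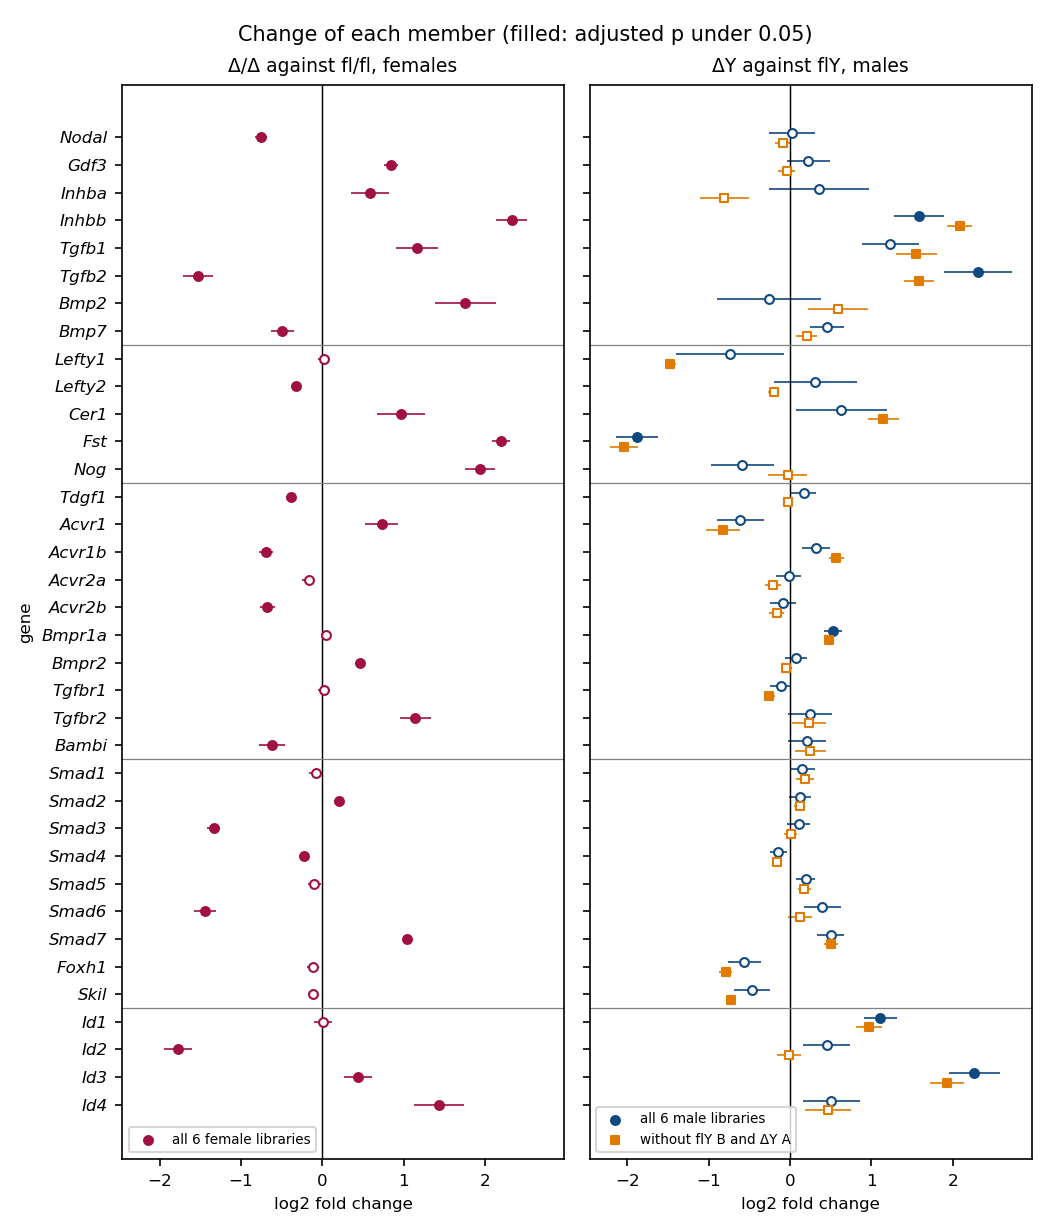
Log2 fold change of mutant against control for each member, with bars of 1 standard error, in females (left) and in males (right, with all 6 libraries and without flY library B and ΔY library A). Filled points have an adjusted p under 0.05. Females have 27 filled points, males 6, and males without the libraries that stood apart 15, and *Tgfb2* and *Fst* lie on opposite sides of 0 in the 2 panels.

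Of the 9 Smads and nuclear partners, 5 passed in females and 0 in males. *Smad2* and *Smad7* rose and *Smad3*, *Smad4* and *Smad6* fell in Δ/Δ cells. The smallest adjusted p in males was 0.0976, that of *Smad7*. At an unadjusted p under 0.05 limma gave 1 higher, *Smad7*, and 1 lower, *Foxh1*, and limma voom called 0. Without the libraries that stood apart, *Smad7* rose and *Foxh1* and *Skil* fell in ΔY cells.

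*Smad3*, which carries the signal of Nodal, Activin and TGF-beta, lies on chromosome 9 (63494574 to 63605801, − strand). It had 481, 526 and 444 in fl/fl and 193, 190.2 and 189 in Δ/Δ cells, a 2.52-fold fall (log2 change −1.33, standard error 0.080, adjusted p = 1.6e-10). Its close relative *Smad2* had 875, 941 and 964 in fl/fl and 1077, 1056 and 1073 in Δ/Δ cells, a small rise (log2 change 0.21, standard error 0.058, adjusted p = 0.0059) that did not pass under scaling by total reads (0.14, adjusted p = 0.056). *Smad4*, the partner shared by both branches, fell slightly (log2 change −0.23, standard error 0.059, adjusted p = 0.0034). In males *Smad3* had 471, 350 and 440 in flY and 437, 441 and 475 in ΔY cells (log2 change 0.11, standard error 0.14, adjusted p = 0.637). The Δ/Δ females were thus the lowest of the 4 groups for *Smad3*, and the other 9 libraries lay between 350 and 526. The difference between the sexes was 1.45 (standard error 0.16, adjusted p = 3.3e-05).

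*Smad6* and *Smad7* encode the inhibitory Smads, of which Smad6 acts mainly on BMP receptors and Smad7 on both branches. They moved apart in females. *Smad6*, also on chromosome 9 (63800953 to 63869866, − strand), fell from 142, 122 and 142 to 50.9, 47.1 and 49.5 (log2 change −1.44, standard error 0.14, adjusted p = 8.75e-08). *Smad7* rose from 1064, 1058 and 1114 to 2331, 2290.4 and 2081 (log2 change 1.05, standard error 0.058, adjusted p = 5.9e-11). Neither gene had overlapping female groups. In males *Smad6* had 123, 73.4 and 103 in flY and 142, 116 and 130.3 in ΔY cells, which overlapped (log2 change 0.40, adjusted p = 0.298). *Smad7* had 1430, 1755 and 1217 in flY and 2463, 1893 and 1851 in ΔY cells. All ΔY libraries were above the controls, with a log2 change of 0.50 (standard error 0.16, adjusted p = 0.0976) and, without the libraries that stood apart, 0.50 (standard error 0.081, adjusted p = 0.0037). The BMP Smads *Smad1* and *Smad5* passed in neither sex, with 217 to 223 and 428 to 509 in fl/fl and 204 to 216 and 427 to 475 in Δ/Δ cells.

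FoxH1 is the forkhead factor that takes Smad2 and Smad3 to Nodal targets, and SnoN, the product of *Skil*, is a repressor that Smad signalling both degrades and induces. In females neither gene passed. *Foxh1* had 662 to 746 in fl/fl and 581 to 691 in Δ/Δ cells, and *Skil* had 3526 to 3660 and 3237 to 3369, with an adjusted p of 0.197 and 0.062. *Skil* passed as a fall with a minimum mean of 10, with limma voom and under scaling by total reads (adjusted p = 0.0045 to 0.044), *Foxh1* under that scaling alone (0.042). In males *Foxh1* had 584, 625 and 586 in flY and 583, 357 and 321 in ΔY cells, and *Skil* had 4365, 4941 and 4612 in flY and 5046, 2718 and 2728 in ΔY cells. ΔY library A sat near the lowest control for *Foxh1* and above the controls for *Skil*, while libraries B and C were far below them. With all libraries the log2 changes were −0.56 (adjusted p = 0.128) and −0.47 (adjusted p = 0.219). Without the libraries that stood apart they were −0.79 (standard error 0.082, adjusted p = 0.00061) and −0.72 (standard error 0.048, adjusted p = 0.00011).

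**Figure D4:**
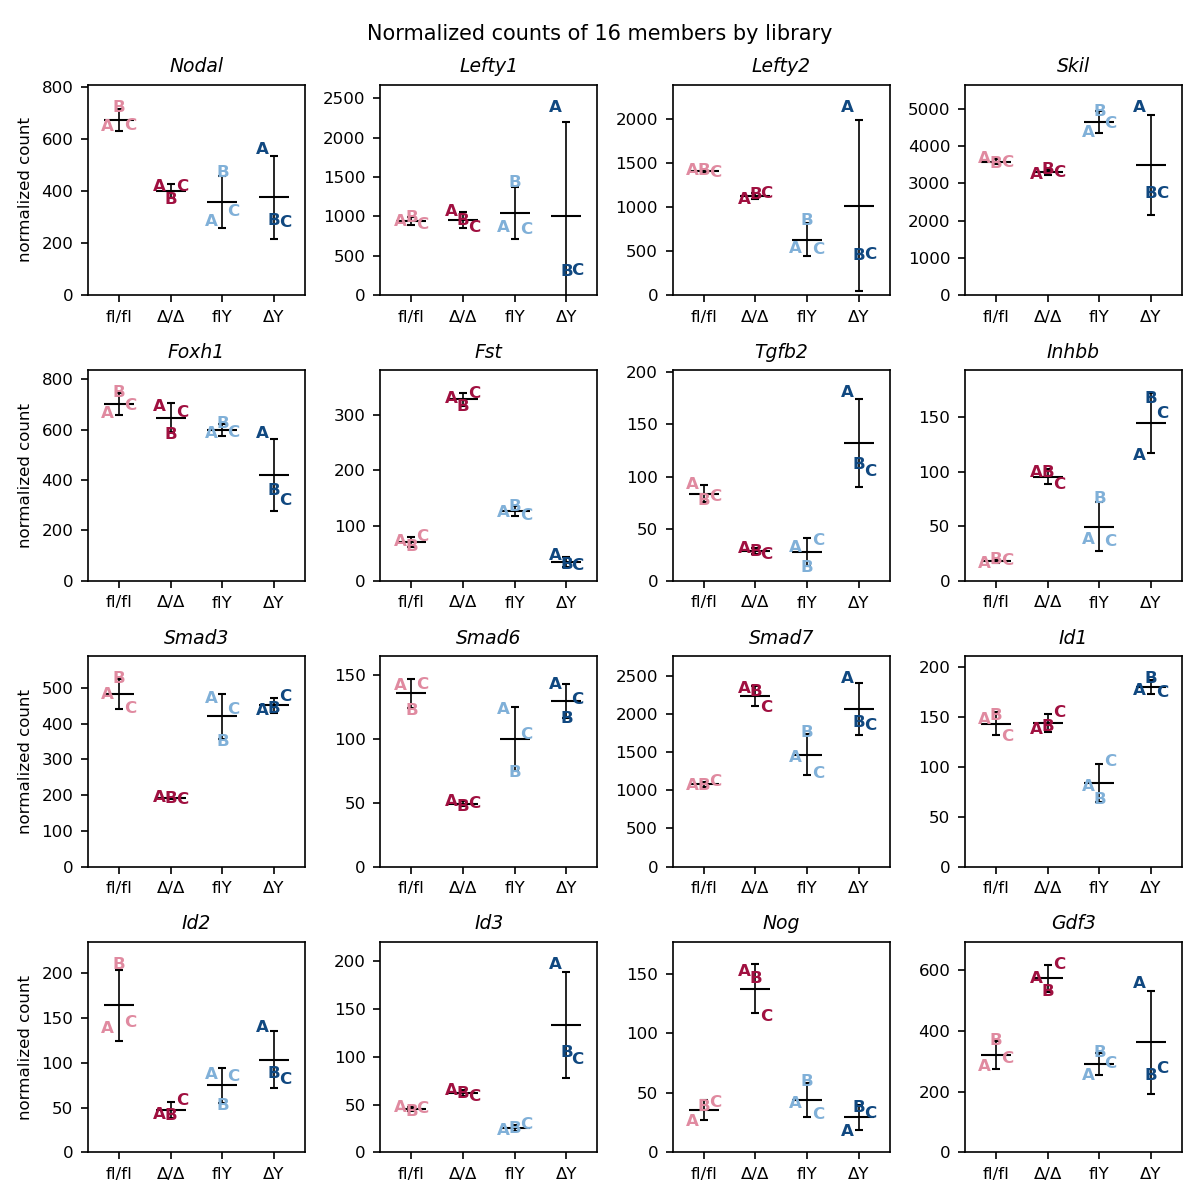
Normalized counts of 16 members, with each library drawn as its letter and the mean and SD of the 3 libraries in black, for female fl/fl and Δ/Δ and male flY and ΔY cells. *Fst* and *Tgfb2* run in opposite directions in the sexes, and ΔY library A lies far above the other ΔY libraries for *Lefty1* (2388 against 297 and 315) and *Lefty2*.

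The *Id* genes encode inhibitors of basic helix-loop-helix factors. In females *Id2* fell, *Id3* and *Id4* rose, and *Id1* did not pass. In males *Id1* and *Id3* rose. The median log2 change of the 4 genes was 0.23 in females and 0.81 in males. Over all genes tested it was 0.00 in females and −0.16 in males, and in males 0.00 over genes with a mean of at least 10. The difference between the sexes passed for *Id1*, *Id2* and *Id3*.

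*Id1* had 148, 152 and 130.1 in fl/fl and 137, 141 and 155 in Δ/Δ cells, with a log2 change of 0.01 (standard error 0.11, adjusted p = 0.943, and −0.06 under scaling by total reads). In males it rose from 80.8, 67.2 and 105 to 177, 189 and 175 (log2 change 1.11, standard error 0.20, adjusted p = 0.013). All ΔY libraries were above all flY libraries. Without ΔY library B, ΔY library C or flY library A the adjusted p was 0.059, 0.056 and 0.068. *Id3*, whose window before the start held no GGCGCC, rose from 22.9, 24.8 and 28.7 in flY to 196, 104 and 97.2 in ΔY cells, a 4.81-fold rise (log2 change 2.27, standard error 0.31, adjusted p = 0.0037), which was 1.93 (adjusted p = 0.00067) without the libraries that stood apart. In females it had 47.3, 42.8 and 45.6 in fl/fl and 65.0, 61.4 and 58.6 in Δ/Δ cells. That rise was small (log2 change 0.44, standard error 0.17, adjusted p = 0.038) and lost its call without Δ/Δ library A or B or fl/fl library B or C (adjusted p = 0.062 to 0.102) and under scaling by total reads (adjusted p = 0.080).

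*Id2*, one of the members with GGCGCC before its start, had 138, 209.7 and 145 in fl/fl and 42.3, 41.2 and 57.6 in Δ/Δ cells, a 3.41-fold fall (log2 change −1.77, standard error 0.17, adjusted p = 1.1e-07). In males it had 86.7, 52.7 and 84.8 in flY and 139.6, 88.2 and 81.7 in ΔY cells, which overlapped (log2 change 0.45, standard error 0.29, adjusted p = 0.343). *Id4*, the other of the 3 with the motif, rose in females from 8.05, 14.3 and 8.89 to 34.5, 26.1 and 27.3 (log2 change 1.44, standard error 0.30, adjusted p = 0.00066). Its male libraries did not overlap, at 16.9, 17.6 and 15.8 in flY and 26.8, 22.3 and 23.8 in ΔY cells, but the log2 change of 0.51 had an adjusted p of 0.380. *Id2* and *Id4* moved in opposite directions in females, and a link between the motif and the changes was not tested.

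Across the sexes, 4 members passed in both. *Inhbb* and *Id3* rose in both, and *Tgfb2* and *Fst* changed in opposite directions. A further 23 passed in females alone and 2 in males alone, *Bmpr1a* and *Id1*, and 7 in neither. With the male fit without the libraries that stood apart, 9 passed in both sexes, 5 in the same and 4 in opposite directions, 18 in females alone, 6 in males alone and 3 in neither. Of all genes tested, 50.1% passed in females and 7.8% in males, or 42.9% in males without those libraries. Overlap and direction were not counted over all genes, so these counts cannot be set against such a share. A call in 1 sex and not in the other is not a difference by itself, so the male change minus the female change was tested in a fit over all 12 libraries. It passed for 16 of 36 members, where 21.2% of 22014 genes did. Of the 14132 genes with a mean of at least 10, 33.8% passed. Those with the largest size were *Fst* at −4.08, *Tgfb2* at 3.84, *Nog* at −2.52 and *Id2* at 2.22. Without the male libraries that stood apart, the 16 kept their direction and their call, and 25 members passed in all, where 45.6% of all genes did. Of the 16, 4 lost the call in some fit with a library left out. *Tdgf1* lost it without any 1 female library, flY library A or flY library C (adjusted p = 0.051 to 0.084). *Acvr2b* lost it without Δ/Δ library B or C, fl/fl library A or B, or flY library A or C (0.056 to 0.085). *Bambi* lost it without Δ/Δ library B or C, fl/fl library B or C, ΔY library B or flY library A (0.059 to 0.095). *Smad7* lost it without any 1 female library, ΔY library B or C, or flY library A or B (0.061 to 0.113), and its adjusted p was 0.0507 with a pseudocount of 0.1 and 0.0501 with limma voom or scaling by total reads.

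The controls themselves differed between the sexes. Of the 36 members, 12 passed in fl/fl females against flY males, 8 higher and 4 lower in females, where 21.5% of all genes passed (9.7% higher and 11.8% lower). Of the 14132 genes with a mean of at least 10, 31.4% passed. Without the male libraries that stood apart 24 members passed, where 48.8% of all genes did, and without ΔY library A alone 19, where 30.2% did. *Nodal*, *Tgfb2*, *Bmpr1a*, *Bambi*, *Smad1*, *Id1*, *Id2* and *Id3* were higher in females and *Inhbb*, *Fst*, *Bmpr2* and *Smad7* lower. *Tgfb2* was higher by a log2 value of 1.70 (standard error 0.34, adjusted p = 0.0035), *Id2* 1.13 (standard error 0.26, adjusted p = 0.0070) and *Nodal* 0.94 (standard error 0.23, adjusted p = 0.010). *Inhbb* was lower by a log2 value of −1.32 (standard error 0.26, adjusted p = 0.0033). This comparison shares its libraries with those of mutant against control and is not independent of them. Females and males were deposited apart, so a difference in processing cannot be told apart from sex. In addition, flY libraries A and C had reads on many genes that were silent in females. *Nodal* lost the call without flY library A (adjusted p = 0.055) and *Bambi* without fl/fl library B (0.054). *Bmpr1a* and *Id3* lost it without any 1 fl/fl library or flY library A (0.061 to 0.108 and 0.069 to 0.0998). *Smad7* lost it without any 1 fl/fl library or without flY library A or B (0.070 to 0.096). Scaling by total reads gave *Bmpr1a* an adjusted p of 0.101, and limma voom gave *Id3* one of 0.138.

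The rest of the pathway was followed with 94 other ligands, antagonists, receptors, regulators and targets that the tables list. In females 50 of the 92 tested passed (54.3%, against 50.1% of all genes), 23 higher and 27 lower, with a median log2 change of −0.16. In males 15 of 93 passed (16.1% against 7.8%), 14 higher and 1 lower, with a median of 0.01. The median over all genes tested in males was −0.16, and 0.00 over those with a mean of at least 10. Without the libraries that stood apart 46 passed in males (49.5% against 42.9%), 28 higher and 18 lower. Of genes with a mean of at least 10, 65.9% passed in females and 12.3% in males with all libraries. The other pathway genes were not limited to that mean. Intracellular regulators, such as ubiquitin ligases and phosphatases of Smads, passed most often in females, 20 of 24. None of them had a log2 change of at least 1, where 16.2% of all genes tested in females passed with one. Other ligands passed least, 5 of 20. Levels were not matched between these roles.

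The female rises of at least 1 on the log2 scale included *Bmper*, which encodes a secreted BMP regulator. It had 9.05, 8.78 and 2.22 in fl/fl and 278, 269 and 239 in Δ/Δ cells (log2 change 5.26, standard error 0.32, adjusted p = 2.3e-10). In males it had 31.9, 71.3 and 46.0 in flY and 11.4, 29.4 and 20.7 in ΔY cells (adjusted p = 0.115). The ligand *Bmp6*, the co-receptor *Tgfbr3* and the targets *Tbx3*, *Snai1* and *Ctgf* also rose in females, with log2 changes of 1.63, 1.43, 2.57, 2.25 and 1.08. *Fstl1*, *Acvrl1* and *Cdkn2b* fell, with −1.14, −1.27 and −1.22. *Cdkn2b* is a TGF-beta target that encodes a cell cycle inhibitor.

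In males *Nbl1*, *Lrrc32*, *Bmp1*, *Acvrl1*, *Tbx3*, *Fstl3*, *Cdkn2b*, *Pcsk6* and *Msx2* rose, with log2 changes of 2.62, 2.096, 1.91, 1.85, 1.76, 1.44, 1.08, 1.04 and 1.01. *Tbx3* rose in both sexes, whereas *Acvrl1* and *Cdkn2b* fell in females and rose in males. The summed level of the fibroblast markers was higher in the same ΔY libraries (5572 to 6597 against 1438 to 1815 in flY). That sum was led by *Col1a1*, with a mean of 225 in flY and 2332 in ΔY cells, and *Col1a2*, with 284 and 1642, and *Col3a1*, *Postn* and *Pdgfrb* rose as well. The other 7 markers did not pass with all libraries, and *Dcn*, at 0 in ΔY libraries B and C, and *Prrx1* were lower without the libraries that stood apart. Whether fibroblasts were present or had a part in the rises above was not tested.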

How the data were processed

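The 12 samples, 3 in each of 4 groups, are RNA-Seq libraries of EpiLCs. Per the methods of the study and the labels, the authors mapped reads of 50 bp to mm9 with TopHat2 2.1.0 and Bowtie2 2.2.6.0, allowing 1 mismatch, and compared genotypes with DESeq, as the tool list names it. The gene annotation is not given in the sources used here. The deposited signal columns are the authors' mean normalized counts, in which the reads on a gene were scaled by each library's size factor before the 3 libraries were averaged, in 2 tables (1 per sex). The tables' other columns hold the authors' fold changes and p-values and were not used.

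The reads of each library were solved from the means, since each mean is a sum of whole reads times 3 fixed steps. Every gene searched, with a mean of at most 10000, had 1 solution, which left 22808 genes in all 12 libraries and 86.0 to 91.4% of the normalized reads. The solver and the fits were tested on simulated data. Libraries carry no sample names, so the main design was kept but fitted to recovered libraries. Per the methods of the study, the 3 samples of a group are separate ESC lines. Depth limits counting error only.

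Limma 3.58.1 (R 4.3.3) with an intensity trend was fitted to log2(normalized count + 1) within each sex, so changes of low genes are understated. The difference between the sexes and that between the controls came from a fit over 12 libraries. P-values were adjusted by Benjamini-Hochberg over all genes with a read, and 0.05 was the threshold. Alternatives were a pseudocount of 0.1, a minimum mean of 10, scaling by total reads, limma voom, each library left out, and the male libraries that stood apart left out. The total reads were those on the 22808 genes solved in all 12 libraries, without the highest genes. Solved genes held 86.3, 88.1, 86.0 and 91.4% of the normalized reads in fl/fl, Δ/Δ, flY and ΔY cells, so this scaling differs from one by all reads.

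All 36 members are named. Other pathway genes are named where they passed the test with a log2 change of at least 1 and a mean of at least 10, except some that are not reported here. *Bmp4* and *Sox17* were chosen after its values were seen. The members and lists were chosen with earlier results of these data known, and they support nothing by themselves. Exon lengths and the share of 50-base positions found once came from GENCODE vM1 on mm9, and promoters from RefSeq on GRCm38.p6 (22 members matched by symbol, the other 14 not used here). Scripts ran in Python 3.11.15 with numba 0.67.0, numpy 2.4.6, scipy 1.17.1 and pandas 2.3.3, and figures were drawn with matplotlib 3.10.9.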

Additional observations from a re-analysis of the deposited data

Results flagged for a closer look

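The change of a member in males was compared with its change in females through an interaction term, and 16 members passed. Values are the male log2 change minus the female log2 change from limma over all 12 libraries. It was positive, which is a change further upward in males, for *Tgfb2* (3.84), *Id2* (2.22), *Smad6* (1.83), *Id3* (1.83), *Smad3* (1.45), *Id1* (1.098), *Acvr1b* (1.01), *Bmp7* (0.95), *Bambi* (0.83), *Acvr2b* (0.59), *Tdgf1* (0.55) and *Bmpr1a* (0.49). It was negative for *Fst* (−4.08), *Nog* (−2.52), *Acvr1* (−1.34) and *Smad7* (−0.55). The differences of *Tdgf1*, *Acvr2b*, *Bambi* and *Smad7* are the ones that some fit with a library left out did not call.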

How the results depend on the processing

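No paired analysis was possible because the columns are group means, and the recovered libraries carry no replicate number of the labels. Without the male libraries that stood apart, 9352 genes and 15 members were called in males (main 1705 and 6), 10014 and 25 for the difference between the sexes (main 4675 and 16), and 10724 and 24 between the controls (main 4741 and 12), each with 2 libraries per male group. Those 2 were the most alike of their group, which lowers the spread in these fits. With 1 library left out, the calls ranged from 333 to 4691 genes and 3 to 12 members in males, from 3554 to 7334 and 12 to 20 for the difference, and from 2894 to 8318 and 8 to 19 between the controls. A pseudocount of 0.1, a minimum mean of 10, scaling by total reads and voom kept each of these counts within 1.5 times. Signs turned among changes that were not called. Scaling by total reads gave females −0.0476 for *Lefty1*, −0.0255 for *Bmpr1a*, −0.0476 for *Tgfbr1* and −0.0578 for *Id1*. Without the male libraries that stood apart, the male value was −0.0852 for *Nodal*, −0.0391 for *Gdf3*, −0.807 for *Inhba*, 0.59 for *Bmp2*, −0.199 for *Lefty2*, −0.0231 for *Tdgf1*, −0.0442 for *Bmpr2* and −0.0146 for *Id2*. With 1 library left out, values ranged across 0 in females for *Lefty1* (−0.0563 to 0.0922), *Tgfbr1* (−0.0457 to 0.0593) and *Id1* (−0.0563 to 0.053), and in males for *Nodal* (−0.2998 to 0.242), *Gdf3* (−0.128 to 0.438), *Inhba* (−0.242 to 0.812), *Bmp2* (−0.72 to 0.498), *Lefty2* (−0.429 to 0.69), *Tdgf1* (−0.0128 to 0.269), *Acvr2a* (−0.114 to 0.0859), *Bmpr2* (−0.0563 to 0.166) and *Smad3* (−0.0142 to 0.198). The cause of these shifts was not tested.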
